A study of Mus musculus with 4 samples.

Results

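The regions described here are 303 weak peaks of H3K27ac that were annotated to the proximal promoters of protein-coding genes, out of 4088 peaks in the deposited table. They were chosen on the deposited columns: an annotated distance of up to 1 kb from a transcription start, a protein-coding nearest gene, a chromosome other than 1 and 8, and a pileup under 40. Pileup is the number of fragments stacked at the summit, the highest point of a peak. The 303 peaks belonged to 294 genes. The 445 peaks that met every other criterion but had a pileup of 40 or more, at 409 genes, are called strong proximal promoters below.

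Chromatin came from Sv129 mouse embryonic stem cells (mESCs), a line from 129-strain mice, kept either in 4 mg/L folate (FA4) or in 0 mg/L folate (FA0). H3K27ac was measured by ChIP-seq, with 1 immunoprecipitated (IP) library and 1 input library for each folate level, 4 libraries in total. The table was taken to list where H3K27ac in the FA4 library exceeded that in the FA0 library, because the study names its promoter peak list in that order. No column says which library was the control, the study's text speaks of a slight gain in FA0, and if the order were the reverse, each difference below would be too. There was no replicate of either folate level, so the differences were not checked in replicates and none has a p-value. Every listed peak is higher in FA4 by construction, and a promoter higher in FA0 could not appear. Fewer cells carrying the mark and less of the mark per cell cannot be told apart in such libraries.

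H3K27ac is an acetyl group on lysine 27 of histone H3, placed mainly by p300 and CBP and found at active promoters and enhancers. At an active promoter the start site itself is kept free of nucleosomes, and the mark sits on the nucleosomes on either side, most of it on the first ones inside the gene. Most mammalian housekeeping promoters lie in CpG islands, which in embryonic stem cells are unmethylated and carry acetylated nucleosomes, whereas genes used by a single specialised cell type often have promoters with few CpG sites and a TATA-like box.

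Both kinds of promoter were among the weak peaks. The stretches below are the 150 bases before the RefSeq start (build GRCm38.p6, the assembly of mm10, sense strand, 5′ to 3′). Tnp2, Prm2, Cip2a and Tdrd12 are shown because they held the highest folds or −log10 q values among genes with a RefSeq promoter entry. Prm1 and Anapc11 were added after their values were seen, Prm1 as the neighbour of the first pair and Anapc11 as a CpG-rich contrast. Capitals mark CpG sites and, where it occurs, the motif TATATA.
Tnp2: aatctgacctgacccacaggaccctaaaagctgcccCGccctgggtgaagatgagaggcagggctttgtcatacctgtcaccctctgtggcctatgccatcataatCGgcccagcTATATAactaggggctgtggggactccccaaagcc
Prm2: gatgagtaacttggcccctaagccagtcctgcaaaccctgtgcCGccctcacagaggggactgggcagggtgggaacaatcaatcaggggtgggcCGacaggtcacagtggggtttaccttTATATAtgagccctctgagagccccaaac
Prm1: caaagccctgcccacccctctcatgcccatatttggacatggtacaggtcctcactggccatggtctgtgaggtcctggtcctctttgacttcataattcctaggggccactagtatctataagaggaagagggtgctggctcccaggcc
Tdrd12: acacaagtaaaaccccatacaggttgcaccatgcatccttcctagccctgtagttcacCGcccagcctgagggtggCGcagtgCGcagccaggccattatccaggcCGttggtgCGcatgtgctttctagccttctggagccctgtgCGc
Anapc11: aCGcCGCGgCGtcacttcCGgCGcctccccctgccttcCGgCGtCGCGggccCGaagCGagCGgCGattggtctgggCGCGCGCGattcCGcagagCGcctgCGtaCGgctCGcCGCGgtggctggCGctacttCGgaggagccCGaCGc
Cip2a: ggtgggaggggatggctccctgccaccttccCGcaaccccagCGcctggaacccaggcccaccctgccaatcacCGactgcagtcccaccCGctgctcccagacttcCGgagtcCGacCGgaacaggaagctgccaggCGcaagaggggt

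These stretches lie at chr16:10788656-10788805 (Tnp2), chr16:10792106-10792255 (Prm2), chr16:10796824-10796973 (Prm1) and chr7:35537716-35537865 (Tdrd12) on the minus strand, and at chr11:120598382-120598531 (Anapc11) and chr16:48994038-48994187 (Cip2a) on the plus strand. They hold 2 CpG sites in Tnp2, 2 in Prm2, 0 in Prm1, 6 in Tdrd12, 8 in Cip2a and 29 in Anapc11. The TATATA begins 35 bases before the start in Tnp2 and 29 bases before it in Prm2, where it overlaps a TATAAA of the other strand. Prm1, with no CpG in this stretch, and Anapc11 differ most among the 6.

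The 303 peaks had pileups from 8 to 39, with a median of 19 (quartiles 12.5 and 31.5). Because pileup chose them, these values, the fold and q-value that the peak caller derives from pileup, and the background recovered from them below are descriptions only. Fold enrichment, the deposited ratio of the FA4 pileup to a local FA0 background with 1 added to each, ran from 1.90 to 8.04 with a median of 3.65. The deposited −log10 q had a median of 3.01 and a highest value of 14.6. A fold of at least 3 was reached by 209 of the 303 peaks (69%), by 108 of the 445 strong proximal promoters (24.3%) and by 77.8% of the whole table. A −log10 q of at least 3 was reached by 159 of the weak peaks (52.5%) and 359 of the strong ones (80.7%), against 46.7% of the whole table. In both measures the weak peaks thus lay closer to the table as a whole than the strong promoters did.

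The local FA0 background can be recovered from pileup and fold, and its median was 4.09 fragments at the weak peaks (quartiles 1.91 and 10.2) against 24.4 at the strong ones. It stood within 0.01 of the lowest value in the table, 1.60, at 52 of the 303 weak peaks (17.2%) and at 0 of the 445 strong ones, a difference that the pileup limit itself brings about. For those 52 peaks the fold follows from the pileup alone: Zfp410, Hdac6 and a peak of Zfp951 all reached a pileup of 9 and therefore a fold of 3.84. Peaks with a pileup of 8 to 15, 120 in number, had a median background of 1.67 and a median fold of 4.23. The 96 peaks with a pileup of 16 to 29 had a median background of 5.65 and a median fold of 3.41, and the 87 peaks with a pileup of 30 to 39 had 12.4 and 2.67. A peak of few fragments is listed only where the background is low, so this order too comes with the choice by pileup. Weak peaks were also narrower than strong ones, with a median width of 316 bp against 369 bp, but close to the 320 bp of all listed peaks.

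**Figure D1:**
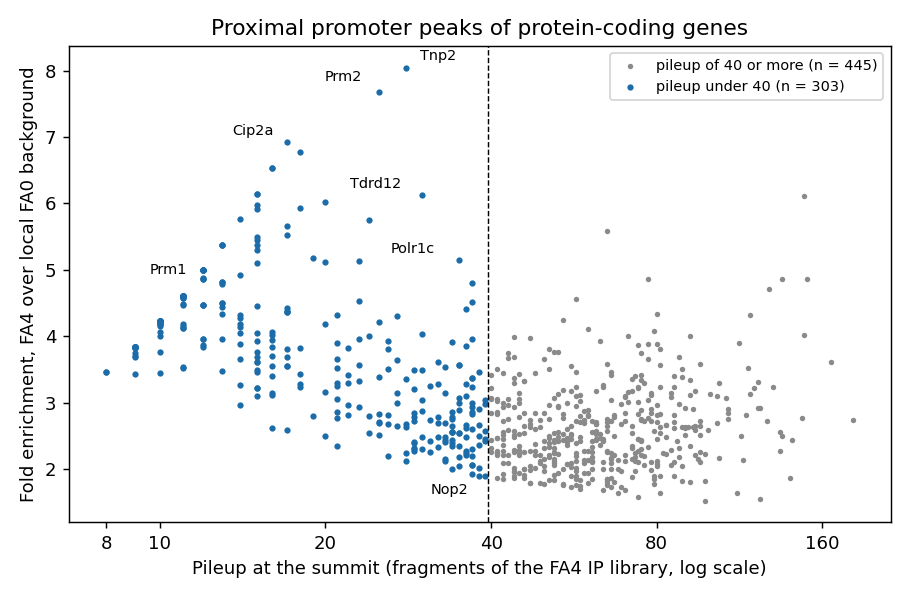
Fold enrichment of FA4 over the local FA0 background against pileup at the summit (fragments, log scale) for the 303 weak (blue) and 445 strong (grey) proximal promoter peaks of protein-coding genes; the dashed line is the pileup limit of 40 that divides them. Tnp2 (fold 8.04) and Prm2 (fold 7.68) stand above all other points, and the upper left edge is set by the peaks at the lowest background.

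The limit of 40 does not fall in a gap. Of the peaks just inside it, with a pileup of 39, the highest −log10 q values belonged to Actn4, an actin crosslinker (fold 3.04), Kcmf1, a ubiquitin ligase (fold 2.98), Flad1, which makes FAD (fold 2.57), R3hdm2 (fold 2.46) and Fkbp2 (fold 2.42). Just outside, with a pileup of 40, were Zfp607b, a zinc finger gene (fold 3.42), Timm22, of mitochondrial protein import (fold 3.23), Adrm1, a ubiquitin receptor of the proteasome (fold 3.08), Tigar, a regulator of glycolysis (fold 3.06), and Haus6, a subunit of the spindle's augmin complex (fold 2.85).

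The largest folds among the weak peaks lay at Tnp2 and Prm2, and a peak of Prm1 lay beside them, all 3 genes for proteins that pack sperm DNA. Tnp2 encodes transition protein 2, which takes the place of histones in spermatids, and Prm1 and Prm2 encode the protamines that follow it. The Tnp2 peak, at chr16:10788347-10788631, had a pileup of 28 fragments (exact Poisson 95% interval 18.6 to 40.5) on a background of 2.60, giving a fold of 8.04 and a −log10 q of 14.6. The Prm2 peak, at chr16:10791800-10792084, had a pileup of 25 on a background of 2.39, with a fold of 7.68 and a −log10 q of 12.6. The Prm1 peak, at chr16:10796399-10796795, was lower, with a pileup of 12 on a background of 1.60, a fold of 5.00 and a −log10 q of 3.71. Their summits are 3411 and 4703 bp apart, with no other listed peak between them. All 3 summits lie inside the gene body, 176, 210 and 288 bp after the annotated start, and their RefSeq starts carry the CpG-poor sequences shown above.

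Tdrd12, a tudor-domain protein of the piRNA pathway of germ cells, came next by −log10 q. Its peak at chr7:35537276-35537690 had a pileup of 30 on a background of 4.06 (fold 6.13, −log10 q 11.6), with the summit 27 bp before the annotated start. The others of the 10 highest −log10 q values were mostly taller peaks on more background. Polr1c, a subunit shared by RNA polymerases I and III, reached a pileup of 35 (fold 5.15). Mrps10, a protein of the small mitochondrial ribosomal subunit, reached 37 (fold 4.80). Rex2 had a pileup of 37 (fold 4.52), Anapc11, the RING subunit of the anaphase-promoting complex, 36 (fold 4.40), and Cyth2, an exchange factor for Arf GTPases, 37 (fold 3.96). Wdr45, of autophagy, had a pileup of 24 (fold 5.76), and the uncharacterised 1700001J03Rik a pileup of 18 (fold 6.77). Their −log10 q values ran from 11.0 at Polr1c to 8.07 at Cyth2.

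Ranked by fold, the places after Tnp2 and Prm2 went mostly to small peaks on low background. Cip2a, an inhibitor of the phosphatase PP2A, had a fold of 6.92 from a pileup of 17. Eif2b3, a subunit of the exchange factor of eIF2, and Spag4, a sperm-associated protein of the nuclear envelope, each had a fold of 6.53 from a pileup of 16. Odf1, a protein of the outer dense fibres of the sperm tail, and Sh3bp2, a signalling adaptor, each had a fold of 6.15 from a pileup of 15. All 5 stood at the lowest background. Wscd2 (pileup 20, fold 6.02) closed the 10 highest folds. The other end of the range was held by peaks with a pileup of 34 to 39 on more background. These were Selenof, a selenoprotein of the endoplasmic reticulum (fold 1.90), Nop2, which methylates ribosomal RNA (fold 1.90), Tmpo, a nuclear lamina protein (fold 1.94), Dnttip2 (fold 2.00) and Fam76a (fold 2.01).

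Position was not used in the choice beyond the annotation, and here the weak peaks were spread out. Their summits lay downstream of the annotated start in 185 of 303 (61.1%, exact binomial 95% interval 55.3 to 66.6), against 304 of 445 strong ones (68.3%, 63.8 to 72.6), intervals that overlap. Strong summits gathered at 100 to 199 bp inside the gene, where 112 of 445 lay (25.2%, 21.2 to 29.5). The fullest 100-bp step of the weak summits, at 200 to 299 bp, held 26 of 303 (8.58%, 5.68 to 12.3). Between 50 and 500 bp downstream lay 33.3% of the weak summits (28 to 38.9) and 53.7% of the strong ones (49 to 58.4). More than 500 bp from the start in either direction lay 42.6% of the weak (36.9 to 48.4) and 18% of the strong (14.5 to 21.9). On both counts these intervals do not overlap. The contrast was smaller among the 128 weak and 332 strong peaks within 1 kb of a RefSeq start of their gene. There the downstream shares were 47.7% (38.8 to 56.7) and 54.8% (49.3 to 60.3), which overlap. The shares over 500 bp away were 28.9% (21.2 to 37.6) and 13.6% (10.1 to 17.7), which do not. The lowest peaks were the most spread, with 60.8% of summits over 500 bp away at a pileup of 8 to 15 and 26.4% at 30 to 39.

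**Figure D2:**
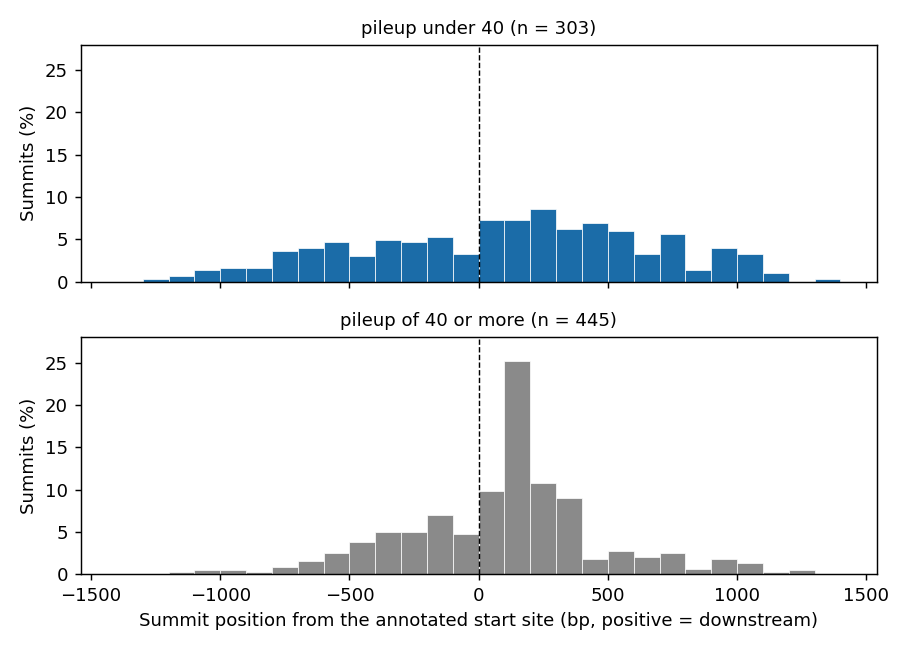
Position of peak summits from the annotated start site (bp, positive values inside the gene) in 100-bp steps, as a percent of the 303 weak peaks (top) and of the 445 strong peaks (bottom). The strong summits gather at 100 to 199 bp (25.2%), while no step holds over 8.58% of the weak summits.

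The start site meant by the annotation was in many cases not a start of the gene in the RefSeq promoter entries. A RefSeq promoter entry of the same gene was at hand for 244 of the 303 weak peaks and 374 of the 445 strong ones. The summit lay within 1 kb of a RefSeq start of its own gene at 128 of these 244 weak peaks (52.5%, 46 to 58.9) and at 332 of 374 strong peaks (88.8%, 85.1 to 91.8). It lay over 5000 bp away at 84 of the weak (34.4%, 28.5 to 40.8) and 12 of the strong (3.21%, 1.67 to 5.54). Such distances were not particular to the weak peaks. Among 216 peaks annotated at 1 to 3 kb from a coding start, of any pileup, 107 lay over 5000 bp away (49.5%, 42.7 to 56.4). Of the 116 weak peaks over 1 kb from a RefSeq start, 107 were inside their RefSeq gene, and 2 were within 1 kb of the start of any gene in the RefSeq promoter set. The gene models that the deposited table gives for these 116 peaks were short, at a median of 22.9% of the length of the RefSeq gene, against 95.7% for the 128 peaks near a RefSeq start. The promoter entries are not complete. Counting the 5′ end of the whole RefSeq gene as a start as well, which was added after seeing the data, 131 of 244 weak peaks (53.7%, 47.2 to 60.1) and 339 of 374 strong ones (90.6%, 87.2 to 93.4) had their summit within 1 kb of a start, and 80 weak peaks (32.8%, 26.9 to 39.1) lay over 5000 bp from any. For those 80 peaks, the annotation as proximal promoter rests on a start that neither RefSeq source holds.

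The share near a RefSeq start differed with pileup. It was 25.8% (17.4 to 35.7) at a pileup of 8 to 15, 62.5% (50.3 to 73.6) at 16 to 29 and 77.3% (66.2 to 86.2) at 30 to 39. Several of the named genes were far from a RefSeq start. The Cip2a summit was 18726 bp into the gene, on a model of 1055 bp that is 4.13% of the gene's length, so the CpG-rich stretch shown above is not the one under the peak. The Orc1 peak (origin recognition complex, pileup 17, fold 5.66) was 7662 bp from the start and the Cep57 peak (centrosome, pileup 15, fold 5.97) 11426 bp. The Wdr45 peak lay 9187 bp upstream of the RefSeq start, and a strong peak of the same gene lay near that start (pileup 42, fold 2.99). By contrast, Tnp2, Prm2 and Tdrd12 had their summits 171, 210 and 151 bp from a RefSeq start.

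**Figure D3:**
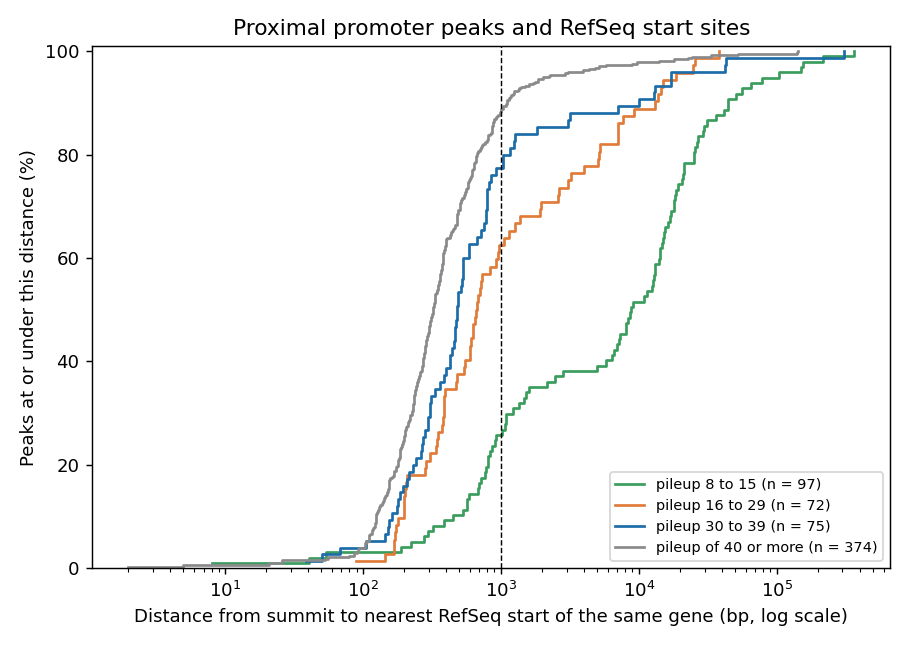
Cumulative percent of peaks against the distance from summit to the nearest RefSeq start of the same gene (bp, log scale), for weak peaks in 3 ranges of pileup and for strong peaks; the dashed line is 1 kb. At 1 kb the curves stand at 25.8%, 62.5% and 77.3% for pileups of 8 to 15, 16 to 29 and 30 to 39, and at 88.8% for the strong peaks.

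CpG content was taken from the RefSeq promoter windows, 300 bases from 250 before to 50 after the start, as the observed number of CpG sites over the number that the C and G content would give by chance. Its median was 0.77 over the 244 weak peaks, 0.85 over the 374 strong peaks and 0.57 over 15779 coding genes. These 15779 are the coding genes off chromosomes 1 and 8 that have a promoter window, each at its first listed window. They are called all coding genes in the window comparisons. With the first listed window the weak median was 0.78. A ratio of at least 0.6, the usual mark of a CpG island, was reached by 164 of the 244 weak (67.2%, 60.9 to 73.1), 319 of the 374 strong (85.3%, 81.3 to 88.7) and 47.8% of all coding genes. The weak peaks thus stood between the strong peaks and the coding genes, and their interval met neither share. This was not particular to them. Peaks annotated at 1 to 3 kb from a coding start, of any pileup, had a median of 0.79 over 216 windows. Of these, 154 reached 0.6 (71.3%, 64.8 to 77.2), an interval that overlaps that of the weak peaks. Among weak peaks the share was 55.7% (45.2 to 65.8) at a pileup of 8 to 15, 73.6% (61.9 to 83.3) at 16 to 29 and 76% (64.7 to 85.1) at 30 to 39. The lowest range of pileup was thus the nearest to the coding genes as a whole, and its interval includes their 47.8%. Only 25 of its 97 windows started within 1 kb of the summit, against 58 of 75 at a pileup of 30 to 39. Whether the share differs with pileup among peaks near a start was not tested. With only the peaks within 1 kb of a RefSeq start, the shares were 68% of 128 weak (59.1 to 75.9) and 87.3% of 332 strong (83.3 to 90.7).

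**Figure D4:**
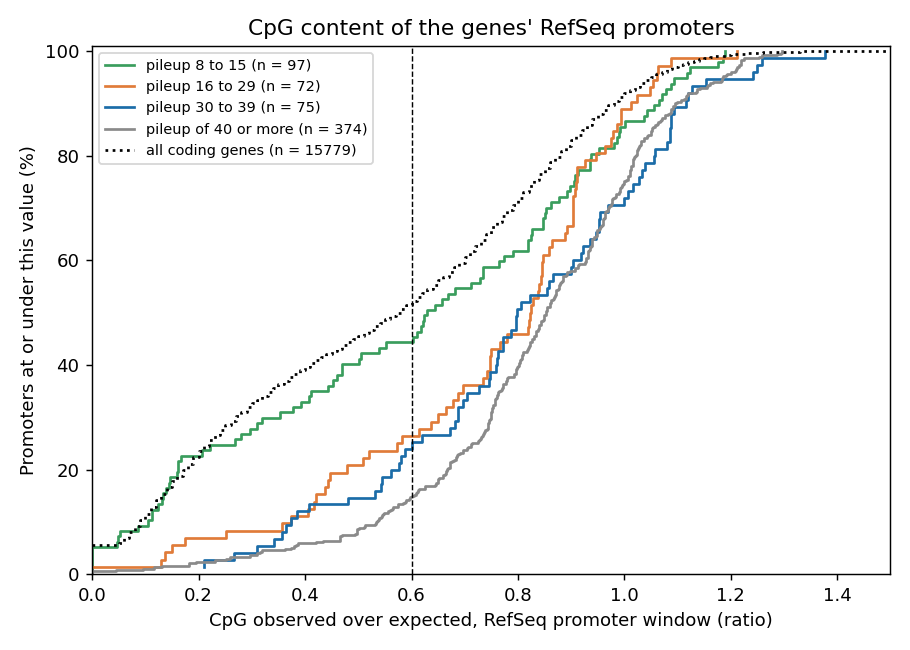
Cumulative percent of RefSeq promoter windows against the ratio of observed to expected CpG sites, for the genes of weak peaks in 3 ranges of pileup, for the genes of strong peaks and for 15779 coding genes; the dashed line is a ratio of 0.6. The curve of the lowest pileups runs near that of all coding genes, with 55.7% of promoters at or above 0.6 against 47.8%, and the strong promoters lie farthest right, with 85.3%.

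The 41 weak peaks that lay within 1 kb of a RefSeq start with a ratio under 0.6 were led by Tnp2 (ratio 0.17), Prm2 (0.14) and Tdrd12 (0.41). Others among the highest by −log10 q were Cyth2 (0.53), Catsperg1, a subunit of the sperm calcium channel (0.37), and Gtf2h4, a subunit of the transcription factor TFIIH (0.42). Eras, a Ras protein of embryonic stem cells on the X chromosome, also belonged here (ratio 0.31, pileup 32, fold 2.70); it was picked out after its values were seen. At the other end Anapc11 had the highest ratio of all members, 1.38.

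A divergent neighbour, a coding gene on the opposite strand whose start lies within 1000 bp, was present for 34 of the 244 weak peaks (13.9%, 9.85 to 18.9), 63 of 374 strong ones (16.8%, 13.2 to 21) and 7.84% of all coding genes. Of the peaks annotated at 1 to 3 kb from a coding start, 17 of 216 had one (7.87%, 4.65 to 12.3). Of the weak peaks with a ratio under 0.6, 1 of 80 had one. The start of Yipf3 lies 35 bp from that of Polr1c, the start of Alyref 167 bp from that of Anapc11, and the start of Cstf1 433 bp from that of Aurka. By distance, it was present for 14 of the 128 weak peaks within 1 kb of a RefSeq start (10.9%, 6.11 to 17.7). That interval includes the share of all coding genes. Of the 116 weak peaks farther away, which do not lie at the paired starts, 20 had one (17.2%, 10.9 to 25.4). Only a peak near both starts could carry either gene's name.

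Short motifs of known promoter factors were searched on both strands of the 300-base windows. The GC box GGGCGG, bound by Sp1, was in 57% of the weak windows (50.5 to 63.3), 67.1% of the strong (62.1 to 71.9) and 46% of all coding genes. The CCAAT box, bound by NF-Y, was in 45.9% (39.5 to 52.4), 37.4% (32.5 to 42.6) and 39.1%. The ETS motif CCGGAAG was in 19.3% (14.5 to 24.8), 22.7% (18.6 to 27.3) and 11.9%. YY1's AAGATGGC was in 6.56%, 9.36% and 3.18%, the palindrome TCTCGCGA in 2.87%, 6.15% and 1.46%, and the TATA box TATAAA in 8.2%, 8.56% and 13.6%. For each of these 6 motifs the intervals of the weak and strong peaks overlapped, and whether the shares differ was not tested. For 116 of the 244 weak peaks the window's start lies over 1 kb from the summit. CCGGAAG was in 25.8% (18.5 to 34.3) of the 128 nearer windows and 12.1% (6.76 to 19.4) of the farther ones. TATAAA was in 11.7% (6.71 to 18.6) and 4.31% (1.41 to 9.77), GGGCGG in 59.4% and 54.3%, and TCTCGCGA in 2.34% and 3.45%. The other 7 motifs searched, CACGTG, TGACGTCA, GCATGCGC, TTTCCCGC, TTTGGCGC, ATGCAAAT and TGATGCAAT, were in 0.41% to 8.2% of the weak windows, also with overlapping intervals. The variant TATATA seen in Tnp2 and Prm2 was in 10 of the 244 weak windows (4.1%, 1.98 to 7.41) and in 6.18% of all coding genes, and it was searched only after those sequences were seen.

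By function, 84 of the 294 member genes fell in at least 1 of 44 gene lists, and 31 lists held a member. Over all 19653 coding genes off chromosomes 1 and 8, 292 (1.49%) had a weak proximal promoter peak and 408 a strong one. The lists were drawn up with earlier results of these data known, so their counts are given as descriptions. In 26 lists the strong peaks outnumbered the weak, in 7 the weak outnumbered the strong, and in 11 they were equal.

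Aminoacyl-tRNA synthetases, which load amino acids onto tRNAs, had weak peaks at 5 of 27 genes (18.5%, 6.3 to 38.1) and strong ones at 4. The 4 highest by −log10 q were Vars, for valine (pileup 24, fold 4.00), Mars1, for methionine (36, fold 3.10), Wars, for tryptophan (17, fold 4.42), and Iars, for isoleucine (15, fold 3.93), and the fifth was Lars, for leucine (28, fold 2.12). The Iars summit was 25015 bp from a RefSeq start and that of Mars1 281 bp. Vars, Wars and Lars had no RefSeq promoter entry. Of 81 cytosolic ribosomal protein genes, 42 had strong peaks and 2 weak ones, Rpl35 (pileup 36, fold 3.28) and Rpl14 (38, fold 2.67), both near the limit. Translation factors had weak peaks at 4 of 63 genes (6.35%, 1.76 to 15.5) and strong peaks at 14. The weak ones were Eef1d, an elongation factor subunit (23, fold 5.14), Eif2b3, Eif3k, a subunit of eIF3 (36, fold 2.67), and Eif2s3y, the Y-linked subunit of eIF2 (27, fold 2.99).

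**Figure D5:**
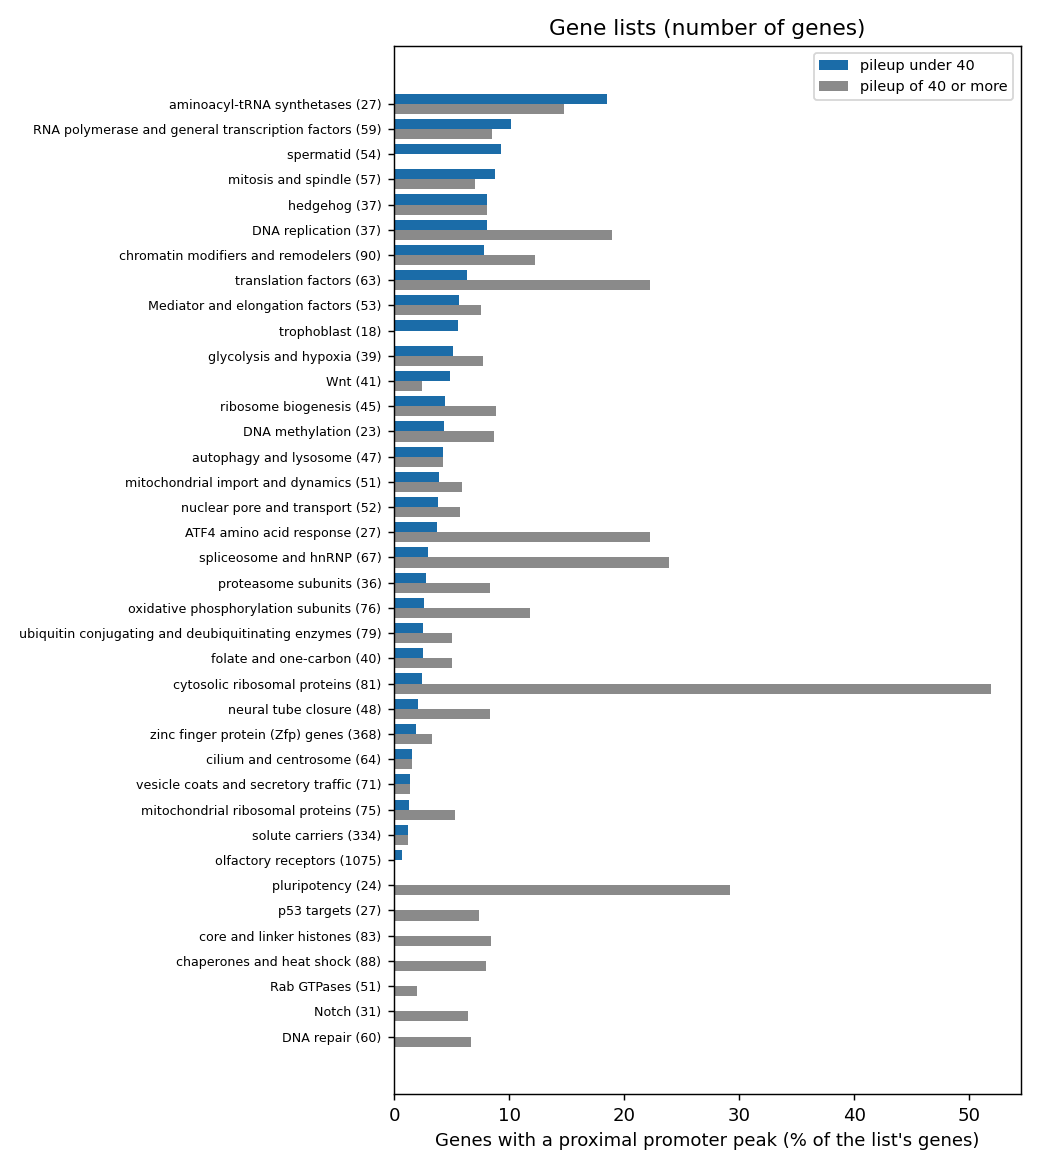
Percent of each list's genes (number of genes in brackets) with a weak (blue) or strong (grey) proximal promoter peak, off chromosomes 1 and 8. Cytosolic ribosomal proteins stand out on the strong side, with 42 of 81 genes against 2 weak, while spermatid genes (5 of 54) and olfactory receptors (7 of 1075) have weak peaks only.

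The transcription machinery had weak peaks at 6 of 59 genes of the RNA polymerases and general factors (10.2%, 3.82 to 20.8) and strong peaks at 5, with 1 gene in both. After Polr1c came Gtf2h4 (pileup 20, fold 5.12), Polr1a, the largest subunit of RNA polymerase I (15, fold 5.45), and Gtf2h1 of TFIIH (13, fold 3.96). Mediator and elongation factors had 3 of 53 (5.66%, 1.18 to 15.7, which includes the 1.49% of all coding genes). They were Med29 (19, fold 5.18) and Med24 (13, fold 4.79) of Mediator, and Ctr9 (14, fold 4.18) of the PAF complex. Chromatin modifiers had 7 of 90 (7.78%, 3.18 to 15.4), with folds from 2.06 to 3.84. Among them were Brd1, a reader of acetylated histones (31, fold 2.74), the demethylases Kdm4b (12, fold 3.84) and Kdm4a (15, fold 3.49), and the remodeler Atrx (25, fold 2.71). Several of these summits were far from a RefSeq start: that of Brd1 was 17141 bp away and that of Kdm4a 18542 bp. The Polr1a summit named here was 26783 bp, that of Gtf2h1 13141 bp and that of Polr1c 1275 bp away. That of Gtf2h4 was 201 bp away.

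Cell division genes had weak peaks at 5 of 57 genes (8.77%, 2.91 to 19.3), with strong ones at 4. They included Anapc11, Aurka, the mitotic kinase Aurora A (pileup 34, fold 2.76), Cenpa, the centromeric histone H3 (16, fold 4.02), and Smc1a of cohesin (29, fold 2.78). The Cenpa summit was 5264 bp from a RefSeq start, and those of the other genes named were within 1 kb. DNA replication had weak peaks at 3 of 37 genes (8.11%, 1.7 to 21.9), against 7 strong. The 3 were Orc1, Rfc2 of the clamp loader (17, fold 3.69) and Pole, the catalytic subunit of polymerase epsilon (15, fold 3.77).

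Genes of late sperm development had weak peaks at 5 of 54 genes (9.26%, 3.08 to 20.3) and strong peaks at 0. This list was made after a run of such genes had been seen in these libraries, so its count is no independent evidence. The 5 were Tnp2, Prm2, Spag4, Odf1 and Prm1, with folds from 5.00 to 8.04 and pileups from 12 to 28. All 5 passed a fold of 3, as did 69% of the weak peaks and 77.8% of the whole table, and Spag4, Odf1 and Prm1 stood at the lowest background, where the lowest fold among the members was 3.46. A sixth, Smcp, a protein of the sperm mitochondrial capsule, had the highest fold of the whole table, 10.4 (pileup 26). Its peak lay at 1 to 2 kb from a start, outside the class described here. Akap4, also on the list, had a peak in an exon (pileup 10, fold 4.23), likewise outside the class. Of the 40 genes on the list for meiosis and the germline, 0 had a proximal promoter peak, weak or strong. That list does not hold every germ cell gene: Tdrd12, described above, and Tfap2c, described below, had weak peaks and are not on it. The olfactory receptors, the largest mammalian gene family, had weak peaks at 7 of 1075 genes (0.65%), under the 1.49% of all coding genes, and strong peaks at 0. All 7 were small, with pileups from 9 to 13 and folds from 3.74 to 5.38. Olfr1388 (pileup 13, fold 5.38), Olfr412 (11, fold 4.61), Olfr837 (11, fold 4.61) and Olfr582 (11, fold 4.19) had the highest −log10 q. Zinc finger (Zfp) genes, many of them repressors of transposons, had 7 of 368 (1.9%, 0.77 to 3.88, which includes 1.49%). They were led by Zfp607b (33, fold 3.54), Zfp951 (25, fold 3.38), Zfp524 (38, fold 2.51) and Zfp991 (33, fold 2.41). The Zfp607b summit was 17136 bp from a RefSeq start, and that of this Zfp951 peak 735 bp. Olfactory and Zfp genes have near-identical copies, among which reads may have been split.

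The study's interest lay in hedgehog signalling, which patterns the neural tube. Of 37 genes of the pathway, 3 had a weak peak (8.11%, 1.7 to 21.9) and 3 a strong one, with 1 in both. Over all coding genes the weak share was 1.49%. Ptch1, the hedgehog receptor, had a weak peak at chr13:63572694-63572984 (pileup 30, fold 2.87, −log10 q 3.37), with its summit 7020 bp from the RefSeq promoter entry but 705 bp from the 5′ end of the whole RefSeq gene. The gene's 2 strong proximal peaks had pileups of 98 and 103 and folds of 1.82 and 3.11. Gsk3b, a kinase that acts on Gli proteins, had a weak peak 338 bp from its RefSeq start (25, fold 2.52), and Prkacb, a catalytic subunit of protein kinase A, one 25029 bp away (9, fold 3.69). Ptch1 was also the only gene with a weak peak among 48 genes of neural tube closure. Of 40 genes of folate and one-carbon metabolism, Shmt1, the cytosolic serine hydroxymethyltransferase, had one (14, fold 4.28), 14314 bp from its RefSeq start. Of 23 DNA methylation genes, Dnmt1, the maintenance methyltransferase, had one at chr9:20937421-20937681 (20, fold 4.18), 15089 bp from its RefSeq start, on a model covering 9.48% of the gene. The weak peaks of Prkacb, Shmt1 and Dnmt1 were thus far inside their genes, while that of Ptch1 lay near the 5′ end of its RefSeq gene. Intervals of the neural tube closure (0.05 to 11.1%), folate (0.06 to 13.2%) and DNA methylation (0.11 to 21.9%) lists include 1.49%.

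As a check of the cell type, 0 of 24 pluripotency genes had a weak peak and 7 had a strong one, among them Pou5f1 (pileup 96), Sox2 (104) and Nanog (85), with folds from 1.94 at Tdgf1 to 2.79 at Trim28. Among markers of other cells, Tfap2c, a trophoblast and germ cell factor, had 2 weak peaks (pileups 17 and 23, folds 4.36 and 2.94), the only gene of 18 on the trophoblast list. Mesoderm (12 genes), endoderm (13), neural progenitor (19) and feeder fibroblast (19) markers had 0 weak or strong proximal peaks. As 1.49% of all coding genes had a weak peak, lists this short would hold few in any case. Counting peaks of any class on any chromosome, 2 mesoderm, 1 endoderm, 4 neural progenitor and 1 feeder fibroblast genes had one. A list of differences says little about which genes carry the mark in these cells.

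Few genes had more than 1 weak peak. Catsperg1 had 3 within a few kilobases (pileups 21, 38 and 15, folds 3.91, 3.46 and 3.68), and 7 genes had 2. In Polr1a the 2 differed, one near the RefSeq start (pileup 28, fold 2.63) and the other 26783 bp from it (pileup 15, fold 5.45). A strong proximal peak was also listed for 15 of the 294 genes. Peaks of the same gene are not independent.

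Chromosomes 1 and 8, left out by the criteria, held 106 of the 854 proximal promoter peaks of coding genes. Over the other chromosomes the number of weak peaks per coding gene varied. Chromosome 7 had the most, 43, or 2.12 per 100 coding genes (exact Poisson 95% interval 1.53 to 2.85), and chromosome 3 had 2.14 per 100 (1.32 to 3.27). The interval treats peaks as independent, though Catsperg1 and Ctbp2 on chromosome 7 each gave more than 1. The lowest autosome was chromosome 14, with 5 peaks or 0.59 per 100 (0.19 to 1.37), and the median over autosomes was 1.55. Within chromosome 7 the 10-Mb stretch from 20 to 30 Mb held 10 weak peaks among 285 coding genes, those of Catsperg1 included. Weak peaks made up 40.5% of all proximal coding peaks. On the autosomes this share ran from 26.3% on chromosome 18 (9.15 to 51.2) to 66.7% on chromosome 16 (41 to 86.7). Chromosome 16 held 12 weak and 6 strong peaks. The X chromosome had 14 weak and 12 strong peaks, and the Y chromosome 1 weak and 0 strong.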

How the data were processed

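ChIP-seq of H3K27ac in Sv129 mESCs gave 4 libraries without replicates. Chromatin was digested enzymatically, which leaves nucleosome-sized fragments and bears on where summits fall. Per the submitters' processing notes, bcl2fastq 2.17, Bowtie 1.1.2 and MACS2 2.1.0 were used with mm10. The sources used here do not give their settings. Library totals and input libraries were not analysed here, so depth is seen only in the pileups.

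The authors deposited 2 peak tables, one of all 4088 peaks and one of its 1538 promoter peaks, which holds all 303 members. The authors deposited pileup as a signal in whole fragments, and the −log10 q-value and the fold enrichment ratio as the peak caller wrote them. The −log10 p-value was not used. Positions, widths and distances to start sites were deposited in bp. No column of the tables belongs to 1 library alone, and 0 columns belong to samples of another series.

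Background was computed as pileup plus 1, over fold, minus 1. It is the peak caller's local estimate, not the FA0 pileup. Starts were taken from the deposited gene models. Genes were matched by symbol or synonym to RefSeq (GRCm38.p6), 292 of 294 member genes in all, and 236 had a promoter window. Where a gene had several windows, the one nearest the summit was used. The 95% intervals are exact Clopper-Pearson ones for shares and exact Poisson ones for counts, and they cover counting error only, since PCR-amplified reads are not independent molecules. The feature functions were tested on simulated data.

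The members, lists and rules were chosen with earlier results of these data known. The rule named the 10 highest −log10 q, the 10 highest and 5 lowest folds, the 5 peaks just inside and 5 just outside the limit, up to 4 genes per described list by −log10 q, and every member of the hedgehog, DNA methylation, folate, pluripotency and neural tube closure lists. Alternatives were a minimum −log10 q of 2 or 3, pileup limits of 30 and 50, all chromosomes, 1 peak per gene, a tolerance of 0.05, peak midpoints, a CpG ratio of 0.75, and divergent starts within 500 or 2000 bp. The RefSeq distance, its limits of 500 and 2000 bp, the alternatives for summits over 500 bp from the annotated start, the first listed window and the motif TATATA were added after seeing the data. Scripts ran under Python 3.11.15 with scipy 1.17.1, numpy 2.4.6, pandas 2.3.3 and matplotlib 3.10.9.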

Additional observations from a re-analysis of the deposited data

How the results depend on the processing

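Of the 68 recomputed values of the main results, 54 stayed within the 95% interval of the value given above, or within 1.5 times a count, and 14 moved; none has a test. Requiring a −log10 q of at least 3 left 159 peaks in place of 303 and moved the median fold from 3.65 to 4.06. With the pileup limit at 30, the median fold was 3.94, the median background 2.52, the share at the lowest background 24.1%, the share within 1 kb of a RefSeq start 41.4% and the share of summits over 500 bp from the annotated start 49.1%. With the limit at 50 the first 4 were 3.29, 8.15, 12.9% and 61.5%. The cause of the moves in the RefSeq and summit shares was not tested. The share near a RefSeq start was 31.6% at 500 bp and 61.1% at 2000 bp, and the share of CpG-rich promoters was 52.5% at a ratio of 0.75. The share of summits downstream of the annotated start and that of divergent neighbours stayed within their intervals under each alternative run on them. No paired analysis was possible because there was 1 IP library per folate level. The planned CpG content of 300 bases around the summit was not run, as no genome was used here.

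Depth limits single peaks: a pileup of 12, as at Prm1, has an exact Poisson interval of 6.20 to 21.0, and 120 of the 303 peaks had 15 fragments or fewer.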

Other observations

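Of the 294 genes with a weak proximal promoter peak, 62 also had another listed peak of some class, 22 of them in an intron. The 268 peaks annotated at 1 to 3 kb from the start of a protein-coding gene, off chromosomes 1 and 8 and of any pileup, had a median pileup of 14, a median fold of 3.72 and a median background of 2.76. Close pairs of weak peaks at different genes were few. Mtx1, of mitochondrial protein import, and Thbs3, a thrombospondin, had summits 2024 bp apart on chromosome 3, and on the X chromosome Eras and Hdac6, a tubulin deacetylase, had summits 11624 bp apart.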
